A study of Bos taurus with 30 samples.

Results

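The 4 mature miRNAs described here, bta-miR-10a, bta-miR-10b, bta-miR-196a and bta-miR-196b, are the members of the miR-10 and miR-196 families that bear these names among the 1030 bovine miRNAs in the deposited table. They were chosen by name and not by any measured value. The tissue was the anterior pituitary of bull calves of the Holstein-Friesian breed, 30 in all, collected at 12 weeks of age, with 1 small RNA library per calf. From 2 to 12 weeks of age, 15 calves on the high plane of nutrition (HI) were offered 1.5 kg of milk replacer per day with free access to concentrate, and 15 calves on the moderate plane (MOD) were offered 0.5 kg of milk replacer and 0.5 kg of concentrate. Neither the labels nor the methods name a genetic change or a drug treatment, and all calves of both diets were euthanised with an intravenous barbiturate before the tissue was taken.

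HOX genes are transcription factors that lie in 4 clusters in mammals and give cells of the trunk, limbs and hindbrain their position along the body axis. They are little used in tissues that form in front of the hindbrain, and the anterior pituitary arises there, from oral ectoderm. The genes of miR-10 and miR-196 lie inside the HOX clusters, and both families pair with HOX mRNAs. miR-196, for example, directs the cleavage of the HOXB8 mRNA. miR-10a and miR-10b are close relatives that share their seed, the stretch near the 5′ end with which a miRNA pairs with its targets, and they are also found in smooth muscle, fibroblasts and endothelium. miR-99a, miR-99b and miR-100 are relatives with a shifted seed whose genes lie outside the HOX clusters.

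RefSeq's annotation of the build ARS-UCD2.0 was used for neighbours only, because the study worked with another build. In it MIR10A lies inside HOXB3, between HOXB5 and HOXB4. MIR10B lies inside HOXD4, between HOXD3 and HOXD8. The mature miR-196a can come from either of 2 genes, MIR196A-1 inside HOXB9 next to HOXB8, and MIR196A-2 between HOXC9 and HOXC10. MIR196B lies between HOXA10 and HOXA9. The annotation places a pair of further miRNA genes in these clusters, MIR615 inside HOXC5 and MIR2886 inside HOXB3. Both bta-miR-615 and bta-miR-2886 were at 0 in all 30 libraries, and the latter was looked up only after the annotation had been read.

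The libraries held 6650492 to 11086524 reads on miRNAs, with a median of 8672424 in HI and 8856734 in MOD calves. Levels are given as CPM, counts per 1000000 reads on miRNAs after TMM scaling, which corrects library totals for differences in composition. Markers of pituitary endocrine cells were abundant in every library. The summed level of the 5 endocrine miRNAs listed ran from 122722 to 216458 CPM, most of it miR-375. The 7 striated muscle miRNAs listed summed to 58.1 to 157 CPM, with miR-1 and miR-206 at or near 0 and miR-133a, miR-208b and miR-499 above 5 CPM in every library. Libraries also stood apart along the order of the calf label numbers. The 9 calves with the highest numbers comprised 5 HI and 4 MOD calves and the other 21 comprised 10 HI and 11 MOD calves, and values below are given for both sets. What the numbers stand for is not stated in the labels.

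bta-miR-10b was the most abundant of the 4, with a mean of 360 CPM and rank 117 among the 840 miRNAs above 0 in at least 1 library. bta-miR-10a followed with a mean of 14.3 CPM and rank 277. bta-miR-196b and bta-miR-196a had means of 0.0808 and 0.0491 CPM, at ranks 638 and 674. Thus miR-10b took 0.0359% of a library's reads and miR-10a 0.00143%. All libraries held reads of miR-10a and miR-10b, whereas miR-196a and miR-196b each had reads in 10 of 30. These are comparisons of reads, and how far the capture of each miRNA in library preparation differed was not measured. In a bulk sample such as this, fewer cells of a type and less RNA per cell cannot be told apart.

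miR-10a ranged from 2.57 to 86.9 CPM around a median of 10.7 CPM, from 24 to 798 reads per library. It was at 86.9 CPM in HI replicate 4 (666 reads) and 85.3 CPM in HI replicate 2 (798 reads), or 8.10 and 7.95 times the median of all calves. The next highest were HI replicate 9 with 17.7 CPM and MOD replicate 1 with 15.1 CPM. So 2 HI calves stood far above all other libraries, and no library lay between 17.7 and 85.3 CPM.

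The level of miR-10a split by calf label number. In the 21 libraries with lower numbers it ran from 7.93 to 86.9 CPM (median 11.3 CPM), and in the 9 with the highest numbers from 2.57 to 4.91 CPM (median 3.34 CPM), without overlap. Without HI replicates 2 and 4, the remaining 19 of the first set held 7.93 to 17.7 CPM, with a mean of 11.8 ± 2.27 CPM (SD, n = 19) against 3.52 ± 0.914 CPM (SD, n = 9). The boundary between the sets was drawn with values of these libraries known, miR-10a among them, so the separation is a description and carries no test. Of the 419 miRNAs tested, miR-10a alone lay wholly lower in the 9 libraries than in the 21 (0.239%), and 4 lay wholly higher (0.955%). Its log2 difference between the sets, -1.78 with all 30 libraries, was the largest in size among the 419, for which the median size was 0.13. The next largest size was 1.63. With the boundary moved by 1 calf, to the 8 highest numbers, the difference of miR-10a was -1.73. Both of its values include HI replicates 2 and 4. Without them the mean log2(CPM + 1) of the lower set was 3.66 in place of 3.93, against 2.15 in the 9. The rank rests on these calves and was not recomputed without them. Depth was similar, with medians of 8672424 reads in the 21 libraries and 9316262 in the 9.

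**Figure D1:**
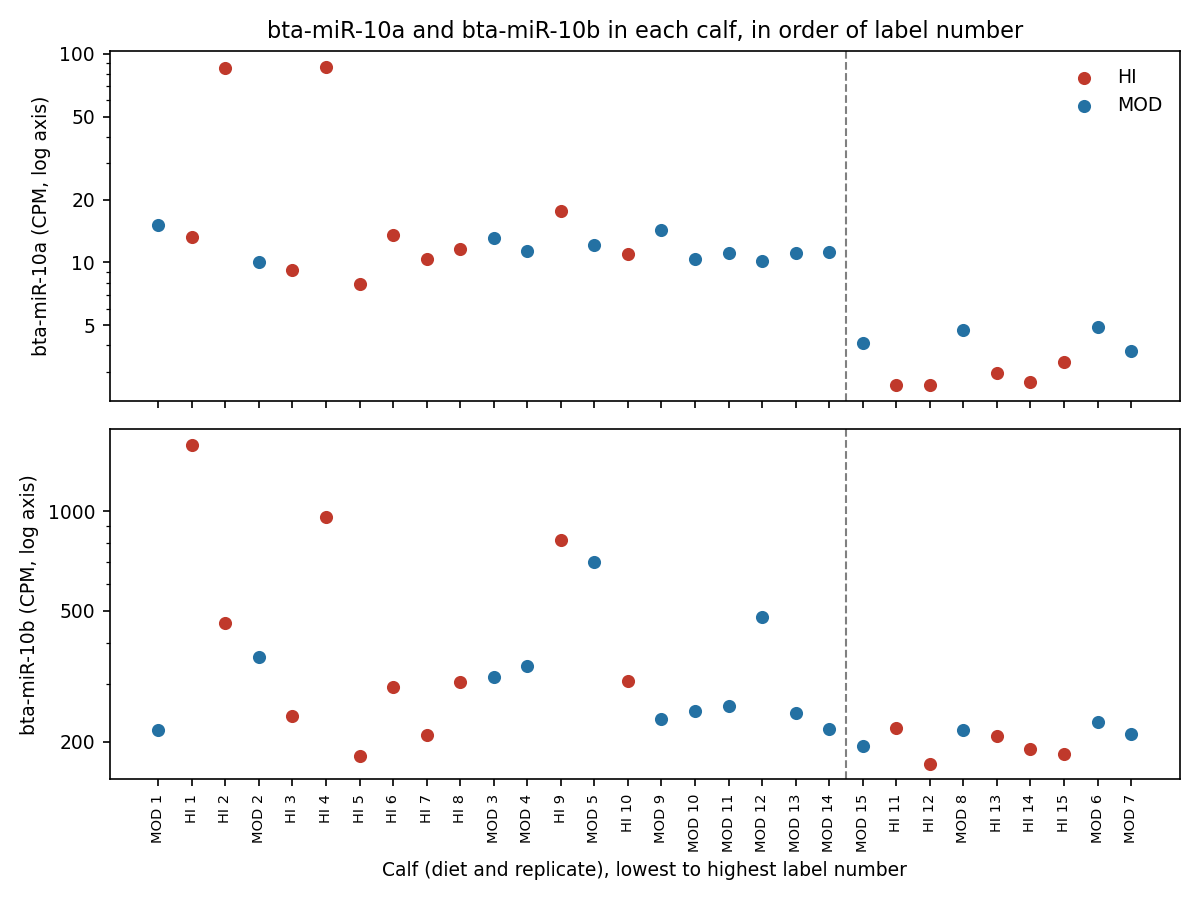
Level of bta-miR-10a (upper panel) and bta-miR-10b (lower panel) in CPM on a log axis, for each calf from the lowest to the highest label number, with HI calves in red and MOD calves in blue. The dashed line separates the 21 lower from the 9 highest numbers, to the right of which miR-10a lies between 2.57 and 4.91 CPM and miR-10b between 172 and 230 CPM.

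Because the sets did not overlap in miR-10a, any group holding calves of both sets was bound to separate in the same way. The last digits of the labels fall into 4 ranges, and the values in each only describe where the calves lie. In the range with 16 calves, miR-10a was at 7.93 to 86.9 CPM in the 12 calves of the lower set and at 2.59 to 4.91 CPM in the 4 of the higher set. In the range with 7 calves it was at 10.0 to 13.5 CPM in 6 and at 2.57 CPM in the other. In the range with 4 calves it was at 13.3 CPM in 1 and at 2.66 to 4.10 CPM in 3, and in the range with 3 calves at 15.1 and 17.7 CPM in 2 and at 2.96 CPM in the other. What else differed between these calves was not tested.

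The shifted-seed relatives of miR-10 were higher in the 9 libraries. miR-100 stood at 1580 to 2276 CPM there and at 849 to 1468 CPM in the other 21, without overlap, a log2 difference of 0.83. For miR-99b the log2 difference was 0.80, also without overlap. For miR-99a-5p, at 1222 to 1946 CPM against 1147 to 1673 CPM, the sets overlapped and the log2 difference was 0.26. All of these differences are in the direction opposite to that of miR-10a, and they too are descriptions without a test. None of the 3 relatives passed FDR < 0.1 between diets in limma, with log2 differences of -0.02 for miR-99a-5p, -0.06 for miR-99b and 0.18 for miR-100.

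miR-10b ranged from 172 to 1586 CPM around a median of 242 CPM, from 1686 to 13741 reads per library. It was highest in HI replicate 1 at 1586 CPM, 6.54 times the median. HI replicate 4 followed at 957 CPM, HI replicate 9 at 815 CPM and MOD replicate 5 at 700 CPM. These libraries included calves of both diets and 1 of the 2 with very high miR-10a. By contrast the 9 libraries with the highest label numbers were close together, at 172 to 230 CPM (mean 203 ± 19.1, SD, n = 9), while the other 21 reached from 182 to 1586 CPM (mean 427 ± 338, SD, n = 21). The sets overlapped for miR-10b, with a log2 difference of -0.80.

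With the sets of label numbers pooled, both miRNAs varied more between calves than most. The SD of log2(CPM + 1) over the 30 libraries was 1.11 for miR-10a, the 6th highest of 419, and 0.78 for miR-10b, the 20th highest, where the median was 0.25. Among HI calves alone miR-10a had the highest SD of the 419 (1.48) and miR-10b the 7th highest (0.99). Among MOD calves they ranked 24 and 30 (0.60 and 0.51). Each of these groups holds calves of both sets. In MOD calves the SD of miR-10a was 0.18 in the lower set and 0.14 in the higher set. That of miR-10b was 0.53 and 0.10. With HI replicates 2 and 4 set aside, the SD in the 19 remaining libraries of the lower set was much smaller for miR-10a than for miR-10b. That of miR-10a was 0.25, rank 188, and that of miR-10b 0.79, rank 16. In the 9 libraries the SDs were 0.29 for miR-10a, rank 159, and 0.14 for miR-10b, rank 378, where the median was 0.24.

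The relation of the 2 miRNAs was not constant. As a percentage of miR-10b reads, miR-10a ran from 0.837% in HI replicate 1 to 18.6% in HI replicate 2. Its median was 4.18% in the 21 libraries and 1.79% in the 9, where it stayed between 1.18% and 2.18%. Over the 21 libraries Pearson's r of log2(CPM + 1) was 0.457 (permutation test, p = 0.0336, adjusted over the 4 values computed p = 0.134) and Spearman's rho was 0.406 (permutation p = 0.0692, adjusted p = 0.138). Without HI replicates 4 and 2, the farthest from the median of miR-10a, r was 0.423 and rho 0.260. Over the 9 libraries r was 0.535 (permutation p = 0.138) and rho 0.533 (permutation p = 0.148), both with an adjusted p of 0.148, and r fell to 0.127 without MOD replicates 6 and 8. No correlation passed the adjustment, and none was computed over all 30 because the sets were separate in miR-10a.

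**Figure D2:**
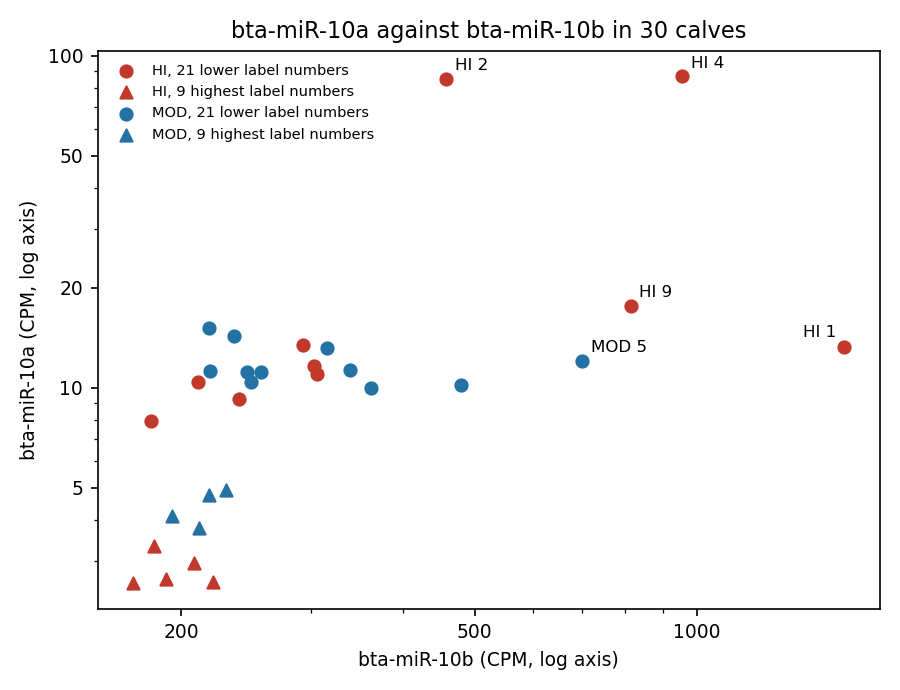
Level of bta-miR-10a against bta-miR-10b in CPM on log axes, 1 point per calf, HI in red and MOD in blue, circles for the 21 lower and triangles for the 9 highest label numbers. HI replicate 1 has the highest miR-10b with 13.3 CPM of miR-10a, and HI replicates 2 and 4 have the highest miR-10a with 458 and 957 CPM of miR-10b.

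HI and MOD calves were compared to ask whether early-life feeding altered these miRNAs. Neither miR-10a nor miR-10b differed between diets at the thresholds of the study. In HI calves miR-10a ran from 2.57 to 86.9 CPM (median 10.4 CPM, mean 18.7 ± 27.8, SD, n = 15), and in MOD calves from 3.78 to 15.1 CPM (median 11.1 CPM, mean 9.85 ± 3.71, SD, n = 15). The HI mean was the higher of the 2 and the HI median the lower. Of the 15 HI calves, 3 lay above the highest and 5 below the lowest MOD calf. In limma on log2(CPM + 1) the difference of HI from MOD was 0.11 on the log2 scale (standard error 0.39, 95% confidence interval -0.68 to 0.91, FDR = 0.949), so the interval covers folds from 0.623 to 1.87. Count models of the recovered reads gave a log2 fold change of 0.92 (edgeR quasi-likelihood, p = 0.0519, FDR = 0.381), 0.93 (edgeR exact test, p = 0.0352, FDR = 0.322) and 0.93 (DESeq2, p = 0.0416, FDR = 0.349). Without HI replicates 2 and 4, a choice made after their values were seen, the limma difference was -0.35 with FDR = 0.743. Without HI replicate 4 alone it was -0.10. The direction therefore turned on these calves. Over all alternatives the FDR ran from 0.322 to 1.00.

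For miR-10b, HI calves held 172 to 1586 CPM (median 239 CPM, mean 422 ± 400, SD, n = 15) and MOD calves 194 to 700 CPM (median 245 CPM, mean 298 ± 134, SD, n = 15). The groups overlapped, with 3 HI calves above the highest MOD calf and 4 below the lowest. The log2 difference was 0.20 (limma, standard error 0.27, 95% confidence interval -0.35 to 0.76, FDR = 0.873), or folds from 0.784 to 1.69. It was 0.04 without HI replicate 1, and -0.16 (FDR = 0.874) without HI replicates 1, 2 and 4, a setting also chosen after seeing the values. Its FDR ran from 0.533 to 0.976 over the alternatives. Across the 419 miRNAs 15 passed FDR < 0.1 (3.58%) and 2 passed the fold change threshold of 1.5 as well (0.477%), and none of these was a member. The median log2 difference over all tested miRNAs was 0.02. The p-values set the difference between diets against the spread between the calves sampled, in a fit without sire or farm of origin.

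Within the sets of label numbers the diet difference of miR-10a took opposite signs, but its change between the sets did not pass the FDR threshold. In the 9 libraries miR-10a was at 2.57 to 3.34 CPM (24 to 32 reads) in the 5 HI calves. It was at 3.78 to 4.91 CPM (36 to 40 reads) in the 4 MOD calves. Every HI calf lay lower than every MOD calf, with a log2 difference of -0.49 (exact two-sided permutation test, p = 0.00794, the smallest that its 126 arrangements can give, and 0.0476 adjusted over 6 such tests). Of the 434 miRNAs tested in these 9 libraries, 4 lay wholly lower in HI than in MOD calves (0.922%), miR-10a included, and 3 wholly higher (0.691%). Both shares are near what the 126 arrangements of the calves would give without a diet difference. The separation of miR-10a is therefore not read as an effect of diet. In limma over the same 434 miRNAs the difference had FDR = 0.560. In the 21 libraries HI calves held 7.93 to 86.9 CPM (median 12.5 CPM) and MOD calves 10.0 to 15.1 CPM (median 11.2 CPM), a log2 difference of 0.54 (exact two-sided permutation test, p = 0.223, adjusted p = 0.302). Without HI replicates 2 and 4 that difference was -0.02 (exact permutation test, p = 0.857). The change of the diet difference from one set to the other, tested as an interaction in limma, was -1.03 for miR-10a (standard error 0.55, FDR = 0.786).

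For miR-10b the log2 difference was -0.13 in the 9 libraries (exact permutation test, p = 0.159) and 0.42 in the 21 (exact permutation test, p = 0.252), each with an adjusted p of 0.302. Its interaction was -0.56 (limma, standard error 0.53, FDR = 0.875).

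**Figure D3:**
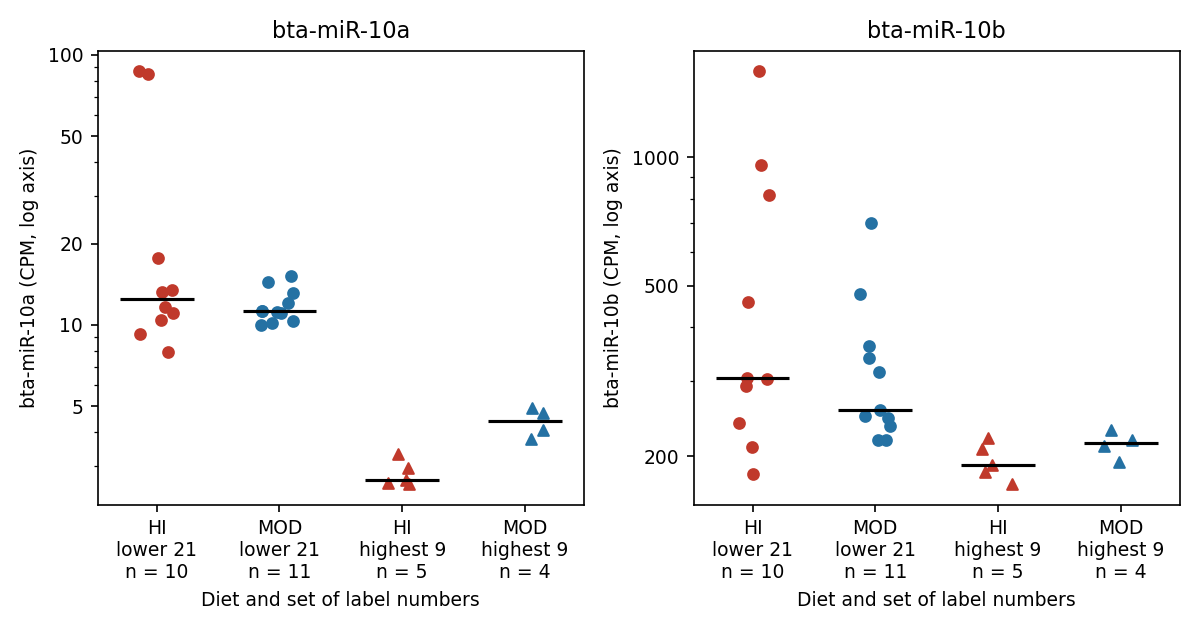
Level of bta-miR-10a (left) and bta-miR-10b (right) in CPM on a log axis by diet and set of label numbers, 1 point per calf and a black line at the median. Among the 9 highest numbers the 5 HI calves lie at 2.57 to 3.34 CPM of miR-10a, below the 4 MOD calves, whereas the diets overlap in the other 3 comparisons.

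HI replicate 1, the library with the highest miR-10b, also held the highest levels of stromal and smooth muscle miRNAs and of some miRNAs of other lists. miR-143, which is abundant in smooth muscle and fibroblasts, was at 181565 CPM there and at 31533 to 80613 CPM in the other 29 libraries. miR-145, transcribed with it, was at 656 CPM against 138 to 345 CPM, and miR-214 at 50.8 CPM against a highest of 30.6 CPM elsewhere. In all, 6 of the 7 miRNAs of the stromal list were highest in this library, counting miR-199a-3p and miR-199c separately although they share their reads. The summed level of the list was 32613 to 184358 CPM in HI (median 45443 CPM) and 33719 to 76761 CPM in MOD calves (median 45087 CPM), and no member of it was at 0 in any library or passed FDR < 0.1 between diets. The endothelial miRNAs miR-126-3p and miR-126-5p were not raised in HI replicate 1, at 1.09 and 0.99 times the median of the other libraries.

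Of the 3 red blood cell miRNAs, 2 were also highest in HI replicate 1. miR-451 was at 403 CPM against at most 276 CPM elsewhere, 3.87 times the median of the other libraries, and miR-144 at 12.7 CPM against at most 8.24 CPM, 3.44 times that median. miR-486, the most abundant of the 3, was at 1.24 times the median. The corresponding ratio was 4.17 for miR-143. Among white blood cell miRNAs 1 of 5 was highest there, miR-155 at 124 CPM against at most 102 CPM, and among striated muscle miRNAs 2 of 7, miR-133a at 8.05 and miR-133b at 6.43 times the median. The summed red blood cell list ran from 10578 to 24489 CPM in HI and from 15557 to 27422 CPM in MOD calves. The part of these cells in the level of miR-10b was not tested.

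With miR-143 as a covariate, an alternative added after its values were seen, the diet difference of miR-10b was 0.06 and that of miR-10a 0.07 on the log2 scale. The second highest stromal sum, 82640 CPM, was that of HI replicate 9, which came behind HI replicates 1 and 4 for miR-10b. MOD replicate 5, next in miR-10b with 700 CPM, had 75311 CPM of miR-143 and the highest stromal sum of the MOD calves, 76761 CPM. HI replicate 4 did not share this pattern, with 957 CPM of miR-10b beside 35044 CPM of miR-143, and neither did the 9 libraries with the highest label numbers, whose stromal sum ran from 39116 to 50261 CPM. HI replicate 1 had 13.3 CPM of miR-10a, close to the median of the 21 libraries. The fit with miR-143 only re-estimates the diet difference, and the part of stromal cells in the level of miR-10b was not tested.

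**Figure D4:**
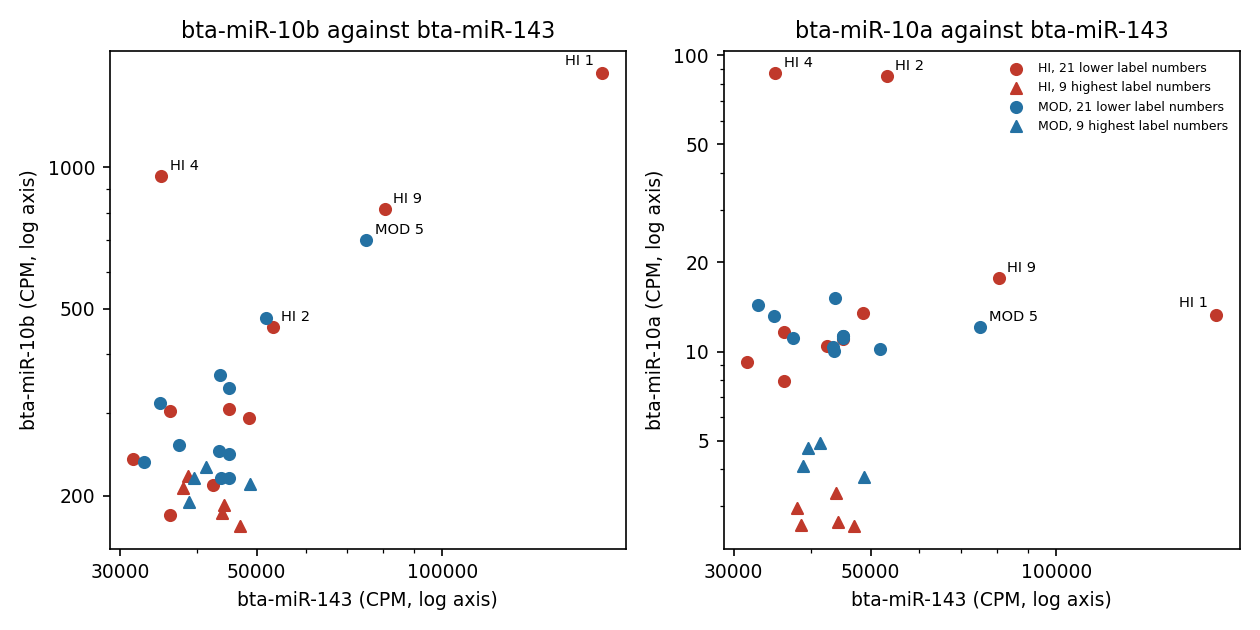
Level of bta-miR-10b (left) and bta-miR-10a (right) against bta-miR-143, a miRNA of smooth muscle and fibroblasts, in CPM on log axes, 1 point per calf with HI in red, MOD in blue and triangles for the 9 highest label numbers. HI replicate 1 lies apart at 181565 CPM of miR-143 with 1586 CPM of miR-10b, and HI replicate 4 has 957 CPM of miR-10b at 35044 CPM of miR-143.

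The miRNAs most like miR-10b in their order over the 21 libraries with lower label numbers were miR-140, known from cartilage and other mesenchyme (Spearman's rho 0.658), miR-133a, a muscle miRNA (0.578), and miR-151-3p (0.578). miR-140 reached 1479 CPM in HI replicate 1 against a median of 507 CPM, and miR-133a 77.3 CPM against 9.64 CPM. Over the other 9 libraries the same rho values were -0.20, 0.47 and 0.35. miR-143 was the 14th in this order for miR-10b, with a rho of 0.497 and Pearson's r of 0.749 over the 21 libraries and a rho of -0.40 over the 9. For miR-10a the nearest were miR-3956 (0.648), miR-181d (0.578) and miR-137 (0.506), whose rho over the 9 libraries was 0.0, 0.12 and 0.03. These values describe how the libraries ranked, all share the same library totals, and none carries a test.

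HI replicate 2, where miR-10a was high, also had the highest level of the neural miRNA miR-9-5p, 101 CPM, and of miR-124a, 4.06 CPM. HI replicate 4 had the lowest miR-9-5p of all 30 libraries, 9.65 CPM, with a like level of miR-10a. Of the same list, miR-137 was also highest in HI replicate 2, at 61.3 CPM. For miR-9-3p, at most 1.06 CPM in any library, and miR-138, at 58.6 to 146 CPM, levels by calf are not given here. miR-128 was highest among the 9 libraries, with up to 910 CPM against at most 520 CPM in the 21. The summed neural list of 7 miRNAs was 469 to 713 CPM in the 21 libraries and 546 to 1084 CPM in the 9. Its highest sums were those of HI replicates 15 (1084 CPM) and 14 (825 CPM), not of HI replicate 2. The list contained no miRNA that passed FDR < 0.1 between diets, and its part in the level of miR-10a was not tested.

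bta-miR-196a and bta-miR-196b, which mark posterior body regions, were near the limit of detection. miR-196a had 0 to 2.5 reads per library and 12.5 reads in all, present in 6 HI and 4 MOD calves. In 5 of these 10 libraries its reads were fractional, whereas those of miR-196b were whole in all 10 libraries with any. Where the fractions came from was not tested. miR-196b had 0 to 5 reads and 20 in all, present in 2 HI and 8 MOD calves. The highest value was 5 reads (0.652 CPM) of miR-196b in HI replicate 4, the calf with the highest miR-10a, and it was the only value of either miR-196 above 3 reads, which is also the upper limit set by finding none. miR-196b was at most 3 reads in MOD calves and 1 read in the other HI calf with any.

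Neither miR-196 had a read in the 9 libraries with the highest label numbers, whereas 16 of the other 21 held at least 1 of them. HI replicate 2 is among the 16 with only 0.5 of a read of miR-196a. How many other miRNAs of such low level had no read in the 9 was not counted. Over the 9 libraries pooled, 0 of 82361604 reads allow a level of up to 0.0364 CPM, and the pooled levels in the 21 were 0.070 CPM for miR-196a and 0.112 CPM for miR-196b. Such limits cover counting error only. In the 9 libraries miR-10a was thus lower and apart, miR-10b lower on average with overlap, and the miR-196 members were at 0. Of the 419 miRNAs tested, miR-10a alone lay wholly lower there (0.239%). How many were lower on average or at 0 was not counted, so no trait shared by the members is read from this. The boundary was chosen from these libraries, and the comparison is not tested.

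By diet, miR-196a had reads in 6 of 15 HI and 4 of 15 MOD calves (Fisher's exact test, p = 0.700). miR-196b had reads in 2 of 15 HI and 8 of 15 MOD calves (Fisher's exact test, p = 0.0502), and among the 21 libraries in 2 of 10 and 8 of 11 (Fisher's exact test, p = 0.0300). Adjusted over the 4 such tests, which share libraries, both came to 0.1003, just above 0.1. The sums were 6 reads in HI, 5 of them in replicate 4, and 14 in MOD calves. Without HI replicates 2 and 4, left out after their values were seen, the log2 difference of miR-196b in the 19 remaining libraries of the lower set was -0.18 (exact permutation test, p = 0.0108, not adjusted). With them it was -0.11 (exact permutation test, p = 0.202, adjusted p = 0.302). As HI replicate 4 held 5 of the 6 HI reads, leaving it out largely sets the result in advance. No diet difference is read from the test without these calves. These values rest on 1 to 3 reads in all libraries with any but HI replicate 4. Neither miR-196 passed the filter on low values, and so 2 of the 4 members entered the limma comparison.

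**Figure D5:**
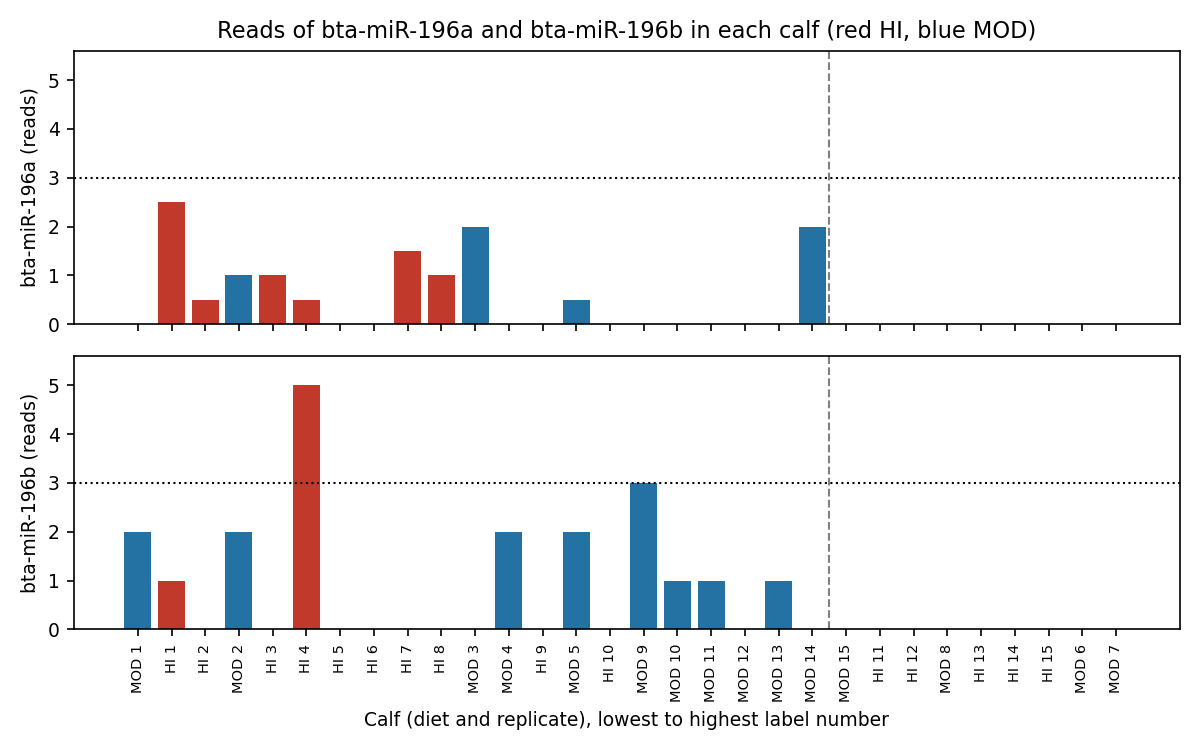
Reads of bta-miR-196a (upper panel) and bta-miR-196b (lower panel) in each calf from the lowest to the highest label number, HI in red and MOD in blue, with a dotted line at 3 reads and a dashed line between the 21 lower and 9 highest numbers. Only HI replicate 4 exceeds 3 reads, with 5 of miR-196b, and the 9 libraries at the right have no bar.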

How the data were processed

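The authors checked reads with FastQC 0.11.8 and trimmed them with cutadapt, for which the submitters' processing notes give version 2.6 and the methods another. Per the methods they kept reads of 15 to 28 bases, removed other short RNAs and counted mature bovine miRNAs with miRDeep2 on the build ARS-UCD1.2. The deposited signal is TMM-normalized CPM per miRNA, made by the authors with edgeR. The size of the smallest step among low values gave back each library's reads, and at least 94.7% of the values checked came out whole within 0.01 reads. HI and MOD were compared with limma 3.58.1 in R 4.3.3 with an intensity trend. The fit used log2(CPM + 1) and was limited to the 419 miRNAs retained by filterByExpr in edgeR 4.0.16. That scale understates the change of low miRNAs. Thresholds were FDR < 0.1 (Benjamini-Hochberg) and fold change > 1.5. Differences in all libraries were also compared by permutation (100000 resamples), and those within sets by exact permutation. DESeq2 1.42.0, both edgeR tests, other scalings and filters, a pseudocount of 0.1, blocks, covariates and leaving out each calf were alternatives. The fits and the recovery were tested on simulated data. Samples were grouped by the treatment label, and replicates were numbered in accession order.

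The members, the marker lists and the tests were chosen with earlier results of these data known. Named miRNAs are the members, for each tested member the 3 miRNAs with the highest Spearman's rho over the 21 libraries, and list members where a list is discussed. bta-miR-2886 and miR-1 were named after the values had been seen. Over all marker lists (endocrine, neural, stromal, endothelial, red and white blood cell, striated muscle, intestine with liver and kidney, testis, stratified epithelium, the miR-10 relatives and miR-615), 1 tested miRNA passed FDR < 0.1 between diets in limma, miR-205. The study's own edgeR comparison also called the red blood cell miRNAs miR-144 and miR-451, both higher in HI calves. Their limma FDR was 0.115 and 0.190. Sequences of the miRNAs are not shown.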

Additional observations from a re-analysis of the deposited data

How the results depend on the processing

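No member passed FDR < 0.1, adjusted over all miRNAs tested, under any alternative. In the 9 libraries with the highest label numbers the exact permutation test of miR-10a had an adjusted p of 0.0476 over 6 tests. Those 6 tests cover the members only. Over all miRNAs tested in these libraries, full separation of the diets was about as frequent as arrangement of the calves alone gives. Further, miR-10a had an unadjusted p under 0.05 in edgeR's exact test (0.0352), in DESeq2 (0.0416) and in limma on those 9 libraries alone (0.00376). Of the values recomputed under an alternative, 215 stayed on the same side of the threshold or, where untested, within 1 SD between calves, and 1 did not: the difference of miR-196b between HI and MOD moved from -0.08 to -0.57 on the log2 scale with a pseudocount of 0.1, as adding 1 CPM to values this low compresses their ratio. Leaving out each calf in turn, the difference of miR-10a ran from -0.10 (without HI replicate 4) to 0.23, that of miR-10b from 0.04 (without HI replicate 1) to 0.30, that of miR-196a from -0.01 to 0.03 and that of miR-196b from -0.13 to -0.06. The sign of miR-10a thus changed with 1 calf, and it was also negative in the 9 libraries with the highest label numbers (-0.49) and without HI replicates 2 and 4 (-0.35). Scaling by total reads moved the median of all miRNAs from 0.02 to 0.07. Per the methods, calves were blocked on age, body weight, sire and farm of origin before they were assigned to a diet. The labels name none of these, so no analysis by pair or by these blocks was possible. Replicate numbers follow accession order and pair no calves. With 24 to 40 reads of miR-10a in the 9 libraries and at most 5 of a miR-196, depth limits what these values can show.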
